A study of Homo sapiens with 12 samples.

Results

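The change in gene expression after depletion of the RNA helicase DDX5 was set against the change after treatment with the small molecule RX-5902, gene by gene, in MOLM-14 cells. MOLM-14 is a human acute myeloid leukemia line of the monocytic kind with a known fusion of KMT2A and a known internal tandem duplication of the receptor gene FLT3. All 12 libraries of the series entered, as 4 groups of 3. The knockdown groups were cells infected with a lentivirus carrying a control shRNA (shControl) or an shRNA directed at DDX5 (shDDX5), each collected 96 hours after infection by spinoculation. For the compound groups, cells received RX-5902 at 100 nM, or its solvent DMSO at 0.1%, and were collected after 6 hours. The labels call the 3 libraries of a group biological replicates and do not say how the cultures were separated. They name a single shRNA against DDX5, so any action of that sequence on other transcripts and the depletion of DDX5 cannot be told apart. The quantity described is the difference between the changes: the log2 change from shControl to shDDX5 minus the log2 change from DMSO to RX-5902. Agent, exposure time and delivery by virus all differ between the experiments and cannot be told apart in this difference. It was obtained for 13233 of the 61906 genes in the tables, those with enough counts in both experiments.

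DDX5, also called p68, is a DEAD-box RNA helicase: it uses ATP to unwind or remodel RNA, and it takes part in transcription, splicing, microRNA processing and ribosomal RNA maturation. RX-5902 is described as a compound that acts on phosphorylated DDX5 and on its interaction with beta-catenin. A knockdown removes the protein over days, whereas a compound acts within hours on protein that is already present, so an early response to the compound and a late state after depletion need not contain the same genes.

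The libraries held 17603589 to 20367575 counts. Mitochondrial genes took 5.19% to 10.3% of them. One library stood apart: counts of shDDX5 replicate 1 differed from those of shDDX5 replicates 2 and 3 by 46.3 and 46.4 chi-square units per gene, against 1.68 to 5.93 for the other replicate pairs. Results that turn on it are therefore also given without it. All 10 markers of the line were detected. Their summed level was 4065 to 4407 CPM, counts scaled to a common library size, in shControl, 13315 to 14675 in shDDX5, 1223 to 1253 in DMSO and 1089 to 1102 in RX-5902. Lysozyme gave most of the shControl and shDDX5 sums. Of 10 erythroid markers 6 were at 0 in every library, among them the globins HBA1, HBA2 and HBB. The platelet chemokines PF4 and PPBP were also at 0. The sum of 5 megakaryocyte markers was 4.28 to 5.62 CPM in shControl and 0.966 to 1.02 in shDDX5, and that of 10 T and NK cell markers, with CD3G at 0, was 145 to 154 and 181 to 226 CPM. Summed markers of mast cells and eosinophils, with CLC and CPA3 at 0, were at 1.92 to 2.32 CPM in shControl and at 8.26 to 11.9 CPM in shDDX5. Summed epithelial and packaging-cell markers were at 4.21 to 4.90 CPM in DMSO and at 18 to 20.5 CPM in RX-5902, with all 6 genes detected. The part of these markers in the results was not tested. The control groups, each scaled within its own table, also had different levels: 452 CPM of MKI67 in shControl against 1064 in DMSO, and 3411 against 377 CPM of LYZ. A level is therefore compared only within its experiment, and every change below is relative to its own control. In bulk RNA, fewer cells of a kind and less RNA per cell cannot be told apart.

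DDX5 (ENSG00000108654, chr17:64498254-64508199, GRCh38.p13) checks the knockdown labels. The shControl libraries gave 755, 718 and 729.5 CPM, and with shDDX5 the level was 159, 164 and 161 CPM. In the DMSO libraries it stood at 854, 868 and 863 CPM, and under RX-5902 at 1108, 1067 and 1023 CPM. The groups did not overlap in either experiment, as for 66.5% of all genes tested in the knockdown and 68.7% with the compound. For DDX5 the directions were opposite. The log2 change was -2.19 ± 0.08 (SE, n = 3 libraries a group, as for every change below) after the knockdown and 0.31 ± 0.04 under the compound, with a difference of -2.51 ± 0.08 (adjusted p = 1.55e-10). DDX17, the closest relative of DDX5 and able to replace it in several of its functions, changed by -0.43 ± 0.09 in the knockdown and 0.15 ± 0.04 with the compound on the log2 scale. Its difference was -0.60 ± 0.09 (adjusted p = 4.03e-05).

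Both experiments changed most of the genes that were measured, in overlapping but differently signed sets of genes. An adjusted p under 0.05 was reached by 56.7% of 14463 genes tested in the knockdown, with 28.4% up and 28.3% down, and by 64.1% of 13941 genes tested with the compound, with 32.2% up and 31.9% down. The difference itself passed for 52.7% of 15386 genes, with 24.1% positive and 28.6% negative. Those shares are the background for every count below. Changes were larger after the knockdown, with a median absolute log2 change of 0.476 against 0.306, and 2496 genes went past 2-fold after the knockdown against 1047 with the compound. Errors were larger there as well, with a median standard error of 0.131 against 0.0663.

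Genes tested in all 3 comparisons were put into classes. A shared gene changed in both experiments in the same direction. An opposite gene changed in both, in opposite directions, with a difference that passed its own test. A knockdown-sided or compound-sided gene passed in 1 experiment only, again with a difference that passed in the matching direction. Of 13233 genes, 1370 (10.4%) rose and 1698 (12.8%) fell in both. Another 940 (7.1%) rose after the knockdown and fell under RX-5902, and 1172 (8.86%) did the reverse. Few of these opposite genes were past 2-fold in both experiments, 28 of the 940 and 75 of the 1172. Their median log2 changes were 0.64 and -0.81 in the knockdown and -0.40 and 0.41 with the compound. Knockdown-sided genes numbered 962 up (7.27%) and 1015 down (7.67%), and compound-sided genes 968 up (7.32%) and 898 down (6.79%). The remaining 4210 (31.8%) met none of these definitions. Most genes below were named by a fixed rule on class, size and list. Outside it, and chosen after their values were seen, are PLK1, CDK1, CCNB2, TOP2A, CD163, HOXA9, CEBPE, CEBPD, ITGAM, MANF, HSP90B1, CALR, XBP1, ERN1, HMGCS1, MYC, BCL2, IFIT1, IFIT2, IFIT3, TFEB, CDKN1A, DDX21 and NFKBIA, and the members given by class alone.

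**Figure D1:**
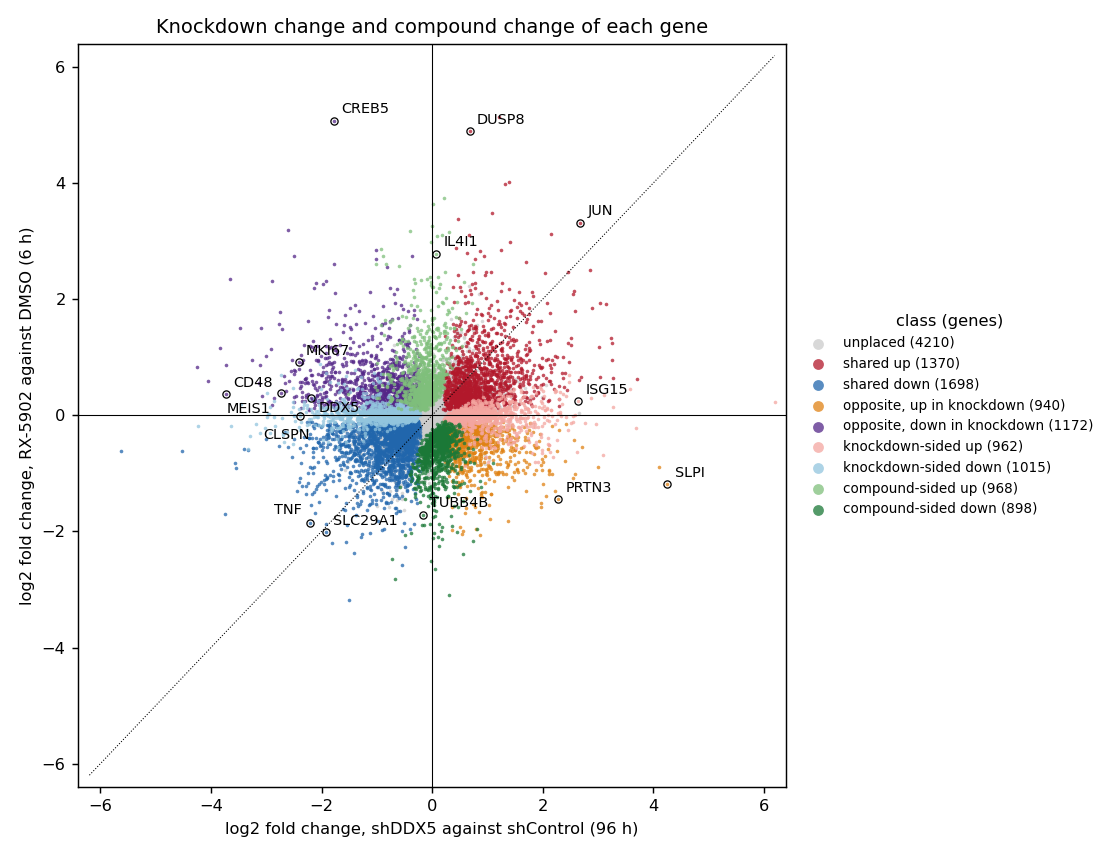
Log2 fold change after the DDX5 knockdown (x axis) and under RX-5902 (y axis) for 13233 genes, 1 point a gene, coloured by class, with equal changes on the dotted diagonal. Genes fill all 4 quadrants, and the labelled genes CREB5, DUSP8 and SLPI lie far from the diagonal while JUN, TNF and SLC29A1 lie near it (1 gene beyond the axes is drawn at their limit).

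The genes called in both experiments numbered 5180, which is 68.7% of the knockdown calls and 59.7% of the compound calls in this set. Those shares were only a little above the background shares, 64.1% called with the compound and 56.7% in the knockdown. The 5180 genes had the same sign in 59.2% of cases and opposite signs in 40.8%. All 2112 with opposite signs had a difference that passed. Changes of opposite sign add up in the difference, so this nearly follows from the selection and is no further support. Across genes the 2 changes had a Pearson correlation of 0.125 and a Spearman correlation of 0.132, given as a description, since genes are not independent. Class membership depended on shDDX5 replicate 1 to an unequal degree. Without that library 98.0% to 99.9% of the shared, opposite and knockdown-sided genes kept their class. Of the compound-sided genes, 63.3% of those up and 57.1% of those down kept it. Among those up, 238 became opposite and 104 shared, and among those down 234 became opposite and 140 shared. Without the library the classes held 1845 and 2236 shared genes (up and down), 1217 and 1452 opposite genes (up and down in the knockdown), 1211 and 1282 knockdown-sided genes and 749 and 657 compound-sided genes, of 13411. Knockdown calls grew over all genes: 4618 rose and 5167 fell of 13411 without that library, against 3544 and 3995 of 13233 with it. List counts given without that library are to be read beside these.

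Classes also differed in features that did not define them. The median exonic length was 4942 bases over all genes tested. It was 6194.5 for opposite genes lowered by the knockdown and 4266 for those raised by it. Compound-sided genes had a median of 6585 bases when raised and 4318.5 when lowered, and knockdown-sided genes raised by the knockdown had 4027. Protein-coding genes made up 83.1% of all genes tested, 91.1% and 91.9% of the opposite classes, and 71.8% of the unplaced genes, whose median level was also the lowest at 10.8 CPM. The part of length and level in these classes was not tested.

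The process lists described below sorted into different classes, as the plot of class shares shows. Genes of mitosis were mostly opposite and down in the knockdown, and granulocyte genes and endoplasmic reticulum chaperones mostly opposite and up in it. Ribosome biogenesis was mostly shared down, phosphatases of the DUSP family and lysosomal genes mostly shared up. The mitochondrial ribosome was split between compound-sided, shared and opposite genes, and the tubulins between shared and compound-sided ones, of which the last became shared or opposite without shDDX5 replicate 1.

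**Figure D2:**
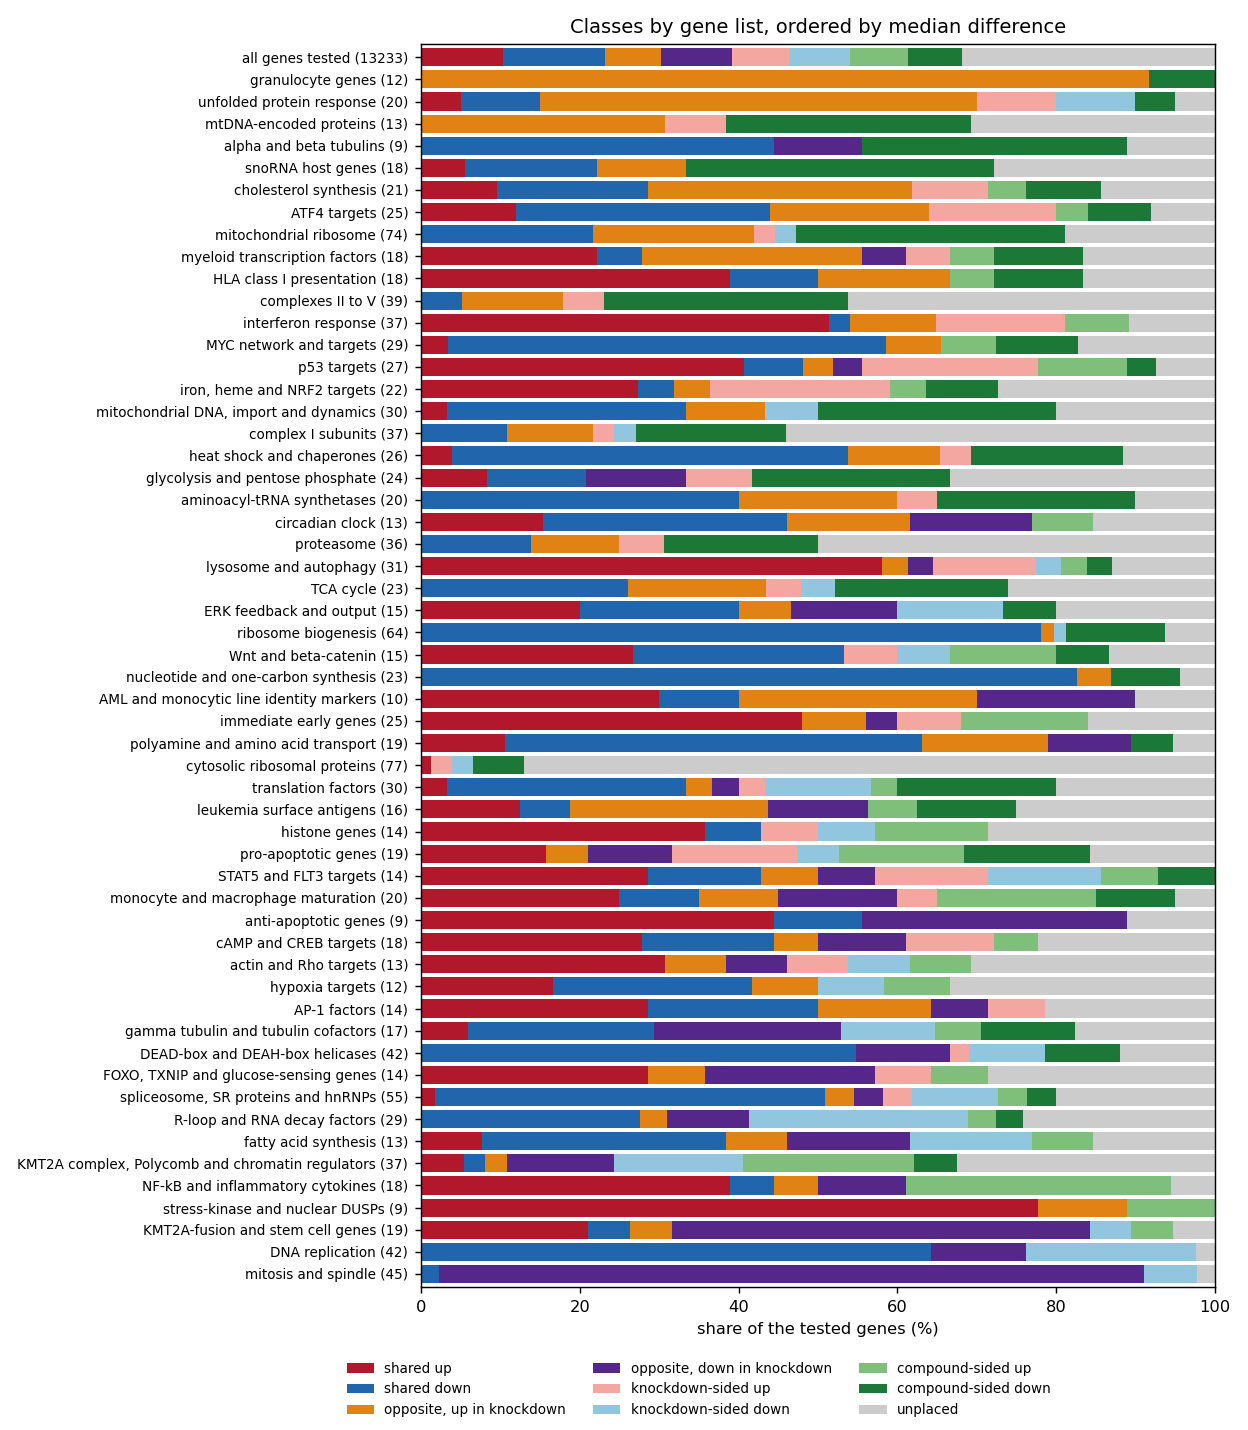
Share (%) of the tested genes of 55 gene lists in each class, 1 bar a list with its number of tested genes, ordered by the median difference between the changes, with all genes tested as the top bar. Granulocyte genes and the unfolded protein response stand at the upper end with mostly opposite genes raised by the knockdown, and mitosis at the lower end with 40 of 45 genes in the reverse class.

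Mitosis genes gave the largest number of opposite genes of any list. These genes encode the kinases, motors and chromosome proteins of the dividing cell and are switched on late in the cell cycle. Of 45 tested, 44 fell after the knockdown (background 28.3%) and 40 rose under RX-5902 (background 32.2%). The exceptions under the compound were MAD2L1, a spindle checkpoint protein, which fell in both, SMC2, CCNA2 and BUB3, which fell in the knockdown only, and NUSAP1, which was unplaced. The median difference was -2.44, against -0.05 over all genes tested. The list median was -1.83, -1.82 and -1.90 in the 3 shDDX5 libraries and 0.51, 0.48 and 0.41 in the 3 RX-5902 libraries, each relative to its own control. The number of opposite genes was 40 with all libraries and also without shDDX5 replicate 1.

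Many of these genes carry a short promoter element, and stretches of 6 such promoters are shown because the element is frequent in this list. The cell-cycle homology region, CHR, is the sequence TTTGAA, through which the DREAM and MuvB complexes are known to bind promoters of mitotic genes. Promoter sequences, 250 bases before to 50 after the start, came from RefSeq (GRCh38.p14) and were searched on both strands for these exact letters. The 6 genes shown all fell after the knockdown and rose under the compound. Each stretch of 30 bases is read along the gene, and the capitals mark the element.

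MKI67 (chr10:128126435-128126464, minus strand): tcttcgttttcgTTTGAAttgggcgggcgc

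KIF23 (chr15:69414282-69414311, plus strand): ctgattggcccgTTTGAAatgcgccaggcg

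CDK1 (chr10:60778158-60778187, plus strand): gagtataataaaTTTGAActgtgccaatgc

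CCNB2 (chr15:59105105-59105134, plus strand): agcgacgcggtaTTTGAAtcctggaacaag

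PLK1 (chr16:23678848-23678877, plus strand): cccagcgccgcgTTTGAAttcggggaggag

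TOP2A (chr17:40418030-40418059, minus strand): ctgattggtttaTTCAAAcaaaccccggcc

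In MKI67, CCNB2 and PLK1 the element began 29 bases before the start, in KIF23 55 bases before it, and in TOP2A and CDK1 151 and 161 bases before it. Of 39 mitosis promoters in the table, 71.8% held TTTGAA on either strand, against 9.78% of 9563 promoters of tested genes and 15.4% of all 27305. CCAAT was present in 76.9% of the mitosis promoters and in 37% of those of tested genes. The whole class of opposite genes lowered by the knockdown held TTTGAA in 16.8% of promoters, the knockdown-sided class down in 14.3% and the shared class down in 8.38%. Within the mitosis list the element did not follow the class: 71.4% of the 35 promoters of opposite genes held it, and so did those of MAD2L1, SMC2 and NUSAP1, which were not opposite. A match is a description of the letters and not a measured site.

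MKI67, the proliferation marker Ki-67 that coats mitotic chromosomes, was at 428, 451 and 476 CPM in shControl and at 41.9, 109 and 103 CPM in shDDX5, with replicate 1 the lowest. It was at 1043, 1072 and 1078 CPM in DMSO and at 2123, 2006 and 1919 CPM in RX-5902. No library of a treated group overlapped its control, which the naming rule required of this gene. The difference of MKI67 was -3.36 ± 0.32 (adjusted p = 1.06e-06). KIF23, a motor of the central spindle, was at 43.7, 43.0 and 43.5 CPM in shControl and 8.07, 9.28 and 9.35 CPM in shDDX5. It was at 69.6, 71.8 and 75.9 CPM in DMSO and 117, 113 and 109 CPM in RX-5902. The 3 replicates lay within a narrow range, and its difference of -2.94 ± 0.09 had one of the smallest p-values of the list (adjusted p = 1.13e-10). KIF2C, which takes apart microtubule ends, had a difference of -2.78 ± 0.09, and RACGAP1, the partner of KIF23 in cytokinesis, one of -2.52 ± 0.09. ASPM, a spindle-pole protein, changed by -2.54 ± 0.23 in the knockdown and 0.95 ± 0.04 with the compound on the log2 scale. GTSE1, a microtubule-bound protein of G2 and S phase, changed by -2.49 ± 0.10 in the knockdown and 0.78 ± 0.05 with the compound on the log2 scale. PIF1, a DNA helicase, changed by -2.32 ± 0.12 in the knockdown and 1.2 ± 0.06 with the compound on the log2 scale.

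**Figure D3:**
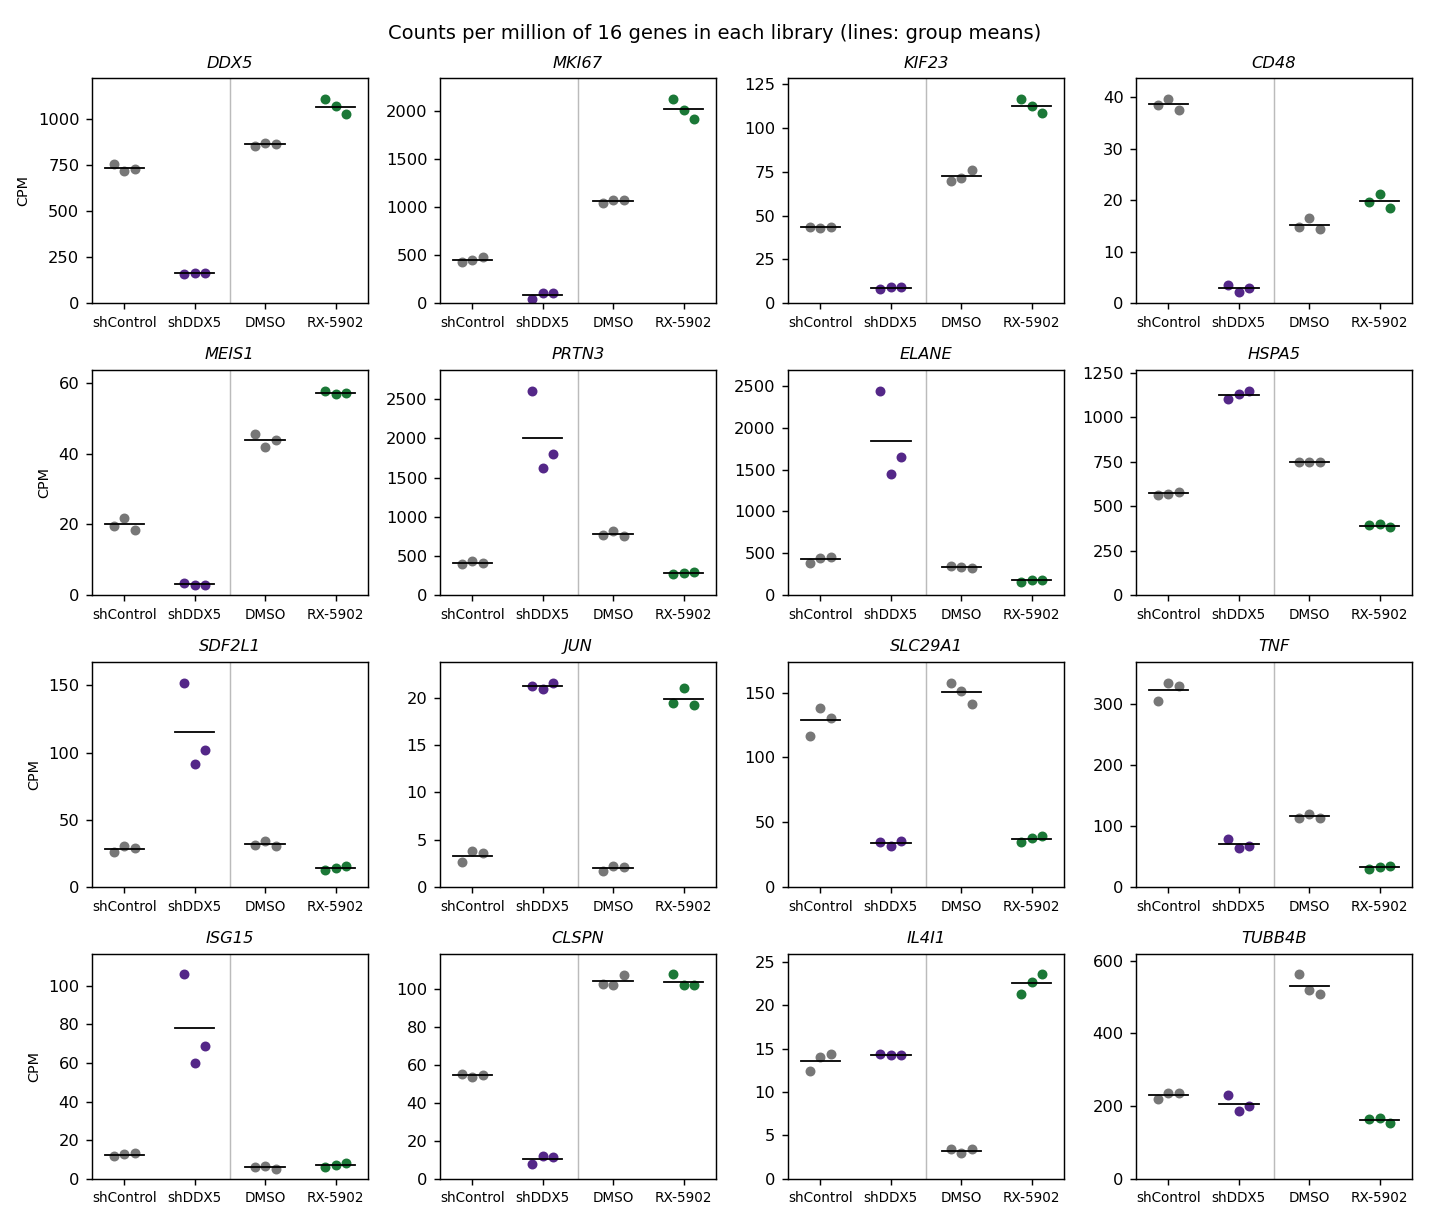
Level in CPM (y axis, from 0) of 16 genes in each of the 12 libraries (points) with group means (lines), knockdown experiment left and compound experiment right of the grey line in each panel. Relative to their own controls, MKI67, KIF23, CD48 and MEIS1 are lower in shDDX5 and higher in RX-5902, for CD48 by a small amount. PRTN3, ELANE, HSPA5 and SDF2L1 show the reverse, and SLC29A1 and TNF are lower in both treated groups.

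DNA replication genes, which act earlier in the cell cycle, parted from the mitosis genes under the compound. After the knockdown 41 of 42 fell, with a median of -1.78. Under RX-5902 28 fell and 5 rose, with a median of -0.21, so 27 were shared down, 9 knockdown-sided and 5 opposite. MCM3, a subunit of the replicative helicase, changed by -2.22 ± 0.09 in the knockdown and -0.39 ± 0.04 with the compound on the log2 scale. MCM7, another subunit, changed by -2.13 ± 0.08 in the knockdown and -0.21 ± 0.04 with the compound on the log2 scale. RRM1, the large subunit of ribonucleotide reductase, was at 199.9, 187 and 185 CPM in shControl and 37.1, 40.3 and 40.1 in shDDX5. In the compound experiment it was at 226, 231 and 244 CPM in DMSO and 248, 248 and 237 in RX-5902, and the groups overlapped. The difference passed in the negative direction for 40 of the 42 (background 28.6%), among them the shared genes MCM3 and MCM7. For the 9 knockdown-sided and 5 opposite genes this follows from the definition of their class.

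The opposite gene with the largest negative difference by the naming rule was CD48 (chr1:160678746-160711831), a surface ligand of the natural killer cell receptor 2B4. It was at 38.5, 39.6 and 37.5 CPM in shControl and 3.58, 2.21 and 2.98 CPM in shDDX5, then 14.8, 16.5 and 14.4 CPM in DMSO and 19.6, 21.2 and 18.4 CPM in RX-5902. Control and treated libraries were separate in both experiments, as the naming rule required, with a difference of -4.11 ± 0.17 (adjusted p = 3.69e-10). ADAMTS14, a protease that trims procollagen, changed by -1.88 ± 0.13 in the knockdown and 1.70 ± 0.09 with the compound on the log2 scale. LZTS1, a leucine zipper protein, changed by -2.33 ± 0.13 in the knockdown and 0.96 ± 0.06 with the compound on the log2 scale. ANO8, a membrane protein of the anoctamin family, changed by -0.82 ± 0.16 in the knockdown and 2.55 ± 0.09 with the compound on the log2 scale. ANO8 shares 76 exonic bases with DDA1, so reads of the pair may be mixed. Among markers of mature monocytes, the scavenger receptor CD163 and the integrin chain ITGAX belonged to this class too. CD163 changed by -2.12 ± 0.25 in the knockdown and 1.12 ± 0.26 with the compound on the log2 scale. ITGAX changed by -0.32 ± 0.09 in the knockdown and 1.82 ± 0.07 with the compound on the log2 scale.

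Genes of the KMT2A-fusion program followed the mitosis genes in direction. KMT2A fusions are known to hold the HOXA genes, MEIS1 and their partners in an active state that keeps leukemia cells immature. Of 19 tested, 12 fell and 5 rose after the knockdown, while 16 rose and 2 fell under the compound, and 10 were opposite in this direction. MEIS1, the homeodomain partner of HOXA9, was at 19.7, 21.8 and 18.5 CPM in shControl and 3.29, 2.77 and 2.98 CPM in shDDX5. It was at 45.7, 41.9 and 43.8 CPM in DMSO and 57.8, 56.9 and 57.2 CPM in RX-5902, so that a log2 change of -2.73 ± 0.12 stood against one of 0.39 ± 0.05. HOXA10 changed by -2.01 ± 0.11 in the knockdown and 0.22 ± 0.06 with the compound on the log2 scale, although its DMSO and RX-5902 libraries overlapped. HOXA9 changed by -1.62 ± 0.11 in the knockdown and 0.47 ± 0.05 with the compound on the log2 scale. ZNF521, a zinc finger protein of immature blood cells, changed by -2.39 ± 0.14 in the knockdown and 0.48 ± 0.04 with the compound on the log2 scale. MYB, a transcription factor that the fusion program needs, ran the other way, with log2 changes of 0.41 ± 0.09 in the knockdown and -0.77 ± 0.04 with the compound. In shDDX5 replicate 1 the list median was lower than in the others, at -0.83, -0.46 and -0.49 across the 3 libraries.

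Regulators of chromatin rose more often than they fell with the compound, and in the knockdown their count down was near the background of 28.3%. Of 37 members of the KMT2A, Polycomb and related complexes, 12 fell and 3 rose after the knockdown, and 20 rose and 7 fell under RX-5902. EZH2, the methyltransferase of Polycomb complex 2, changed by -1.17 ± 0.08 in the knockdown and 0.33 ± 0.04 with the compound on the log2 scale. The de novo DNA methyltransferase DNMT3A was compound-sided with all libraries and opposite without shDDX5 replicate 1, with log2 changes of -0.44 ± 0.20 in the knockdown and 1.28 ± 0.06 with the compound. Without that library 12 of the 37 rose and 16 fell after the knockdown, beside 4618 and 5167 of all 13411 genes tested. The list median was -0.72, -0.07 and -0.04 in the 3 shDDX5 libraries.

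Granulocyte genes were the reverse case: 11 of 12 rose after the knockdown (background 28.4%), all 12 fell under RX-5902 (background 31.9%), and 11 were opposite. They encode proteases and other proteins that promyelocytes and neutrophils store in granules. The median difference was 2.30, and 2.10 without shDDX5 replicate 1. The list median was 1.98, 1.38 and 1.43 in the shDDX5 libraries, highest in replicate 1, and -0.82, -0.75 and -0.75 in the RX-5902 libraries. The 1 gene that did not pass in the knockdown was CTSG, the protease cathepsin G.

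PRTN3 (chr19:840999-848175), which encodes proteinase 3, was at 392, 435 and 415 CPM in shControl and 2608, 1623 and 1801 CPM in shDDX5. It was at 768, 818 and 759.6 CPM in DMSO and 274, 287 and 299.7 CPM in RX-5902. Its difference of 3.71 ± 0.20 (adjusted p = 4.60e-09) was the largest positive one by the naming rule, and 3.48 without shDDX5 replicate 1. Its neighbour ELANE (chr19:851014-856247), the neutrophil elastase gene, was at 383, 441 and 454 CPM in shControl and 2442, 1442 and 1650.4 CPM in shDDX5. ELANE fell from 349, 337 and 329 CPM in DMSO to 161, 185 and 185 CPM in RX-5902, with a difference of 3.04 ± 0.22. CFD (chr19:859453-867884), the complement factor D gene next to ELANE, rose by 2.11 ± 0.19 on the log2 scale after the knockdown, and its value of -0.09 ± 0.05 under the compound did not pass (95% interval -0.20 to 0.01). Neighbouring genes of this cluster thus belonged to different classes. CFD shares 255 exonic bases with MED16.

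RNASE3, the eosinophil cationic protein gene, changed by 2.56 ± 0.16 in the knockdown and -0.42 ± 0.09 with the compound on the log2 scale. MPO, the myeloperoxidase gene, changed by 0.86 ± 0.08 in the knockdown and -0.76 ± 0.05 with the compound on the log2 scale. SLPI, an inhibitor of elastase, had the widest gap of the list: 5.78, 6.95 and 5.57 CPM in shControl, 152, 99.3 and 99.7 in shDDX5, 4.80, 5.62 and 5.77 in DMSO and 2.41, 2.73 and 1.99 in RX-5902. The fitted difference for SLPI was 5.42 ± 0.30 (adjusted p = 4.96e-09). Myeloid transcription factors were mixed: of 18, 11 rose and 2 fell in the knockdown, and 6 rose and 9 fell with the compound. In this list 5 were opposite and up in the knockdown, 1 was the reverse and 4 were shared up. Of the first kind, CEBPE changed by 1.52 ± 0.21 in the knockdown and -0.52 ± 0.10 with the compound on the log2 scale. CEBPD changed by 1.51 ± 0.20 in the knockdown and -0.85 ± 0.07 with the compound on the log2 scale. IRF8, a transcription factor that directs progenitors to the monocyte lineage, was at 666, 665 and 676 CPM in shControl and 1273, 1234 and 1246 in shDDX5. Under the compound IRF8 went from 537, 544 and 541 to 209, 226 and 218 CPM, and its difference was 2.20 ± 0.08.

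Surface and maturation markers did not follow 1 pattern. Of 20 monocyte and macrophage genes 5 were shared up, 2 opposite and up in the knockdown, 3 the reverse and 4 compound-sided up. LYZ, the lysozyme gene, was at 3581, 3450.2 and 3203 CPM in shControl and 13761, 12603 and 12364 in shDDX5, against 388, 376 and 367 in DMSO and 262, 264 and 251 in RX-5902. CD86, a costimulatory ligand, was compound-sided, with log2 changes of -0.01 ± 0.10 in the knockdown and 1.65 ± 0.07 with the compound. CD38, an ectoenzyme and antibody target, changed by 1.55 ± 0.09 in the knockdown and -0.80 ± 0.05 with the compound on the log2 scale. HAVCR2, the checkpoint receptor TIM-3, changed by -0.64 ± 0.15 in the knockdown and 2.18 ± 0.15 with the compound on the log2 scale. The shared-up genes of the list included ITGAM, the integrin chain CD11b, with log2 changes of 1.27 ± 0.11 in the knockdown and 1.26 ± 0.09 with the compound.

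Endoplasmic reticulum chaperones were also raised by the knockdown and lowered by the compound. The unfolded protein response senses misfolded protein in that compartment through IRE1, PERK and ATF6 and raises the chaperones that fold it. Of 20 genes 14 rose and 4 fell after the knockdown, 1 rose and 15 fell under RX-5902, and 11 were opposite. The median difference was 1.00. The list median was 0.73, 0.77 and 0.78 in the shDDX5 libraries and -0.31, -0.32 and -0.29 in the RX-5902 libraries, so replicate 1 did not stand apart here.

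HSPA5, the chaperone BiP, was at 565, 570.5 and 581 CPM in shControl and 1102, 1130.0 and 1148 CPM in shDDX5. It was at 749.9, 748 and 745 CPM in DMSO and 393, 398 and 381 CPM in RX-5902. These 4 groups were far apart compared with their spread, and the difference was 1.90 ± 0.08 (adjusted p = 5.39e-10). SDF2L1, a cofactor of BiP, was at 25.7, 30.8 and 29 CPM in shControl and 152, 91.6 and 102 in shDDX5, against 31.1, 34.1 and 30.4 in DMSO and 12.8, 14.1 and 15.5 in RX-5902. Its difference was 3.18 ± 0.23. CRELD2, a secreted chaperone, changed by 2.29 ± 0.11 in the knockdown and -0.25 ± 0.08 with the compound on the log2 scale, and it shares 168 exonic bases with ALG12. PDIA6, a disulfide isomerase, changed by 0.75 ± 0.07 in the knockdown and -0.78 ± 0.04 with the compound on the log2 scale. MANF, a secreted stress protein, changed by 1.41 ± 0.16 in the knockdown and -0.79 ± 0.06 with the compound on the log2 scale. HSP90B1, the HSP90 of this compartment, changed by 0.80 ± 0.08 in the knockdown and -0.71 ± 0.04 with the compound on the log2 scale. The exceptions included ATF6 and EDEM1, which were knockdown-sided down, ERN1, the sensor IRE1 itself, which was shared up, with log2 changes of 0.98 ± 0.14 in the knockdown and 0.37 ± 0.07 with the compound, and the pair CALR and XBP1, which were shared down.

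The endoplasmic reticulum stress element, ERSE, is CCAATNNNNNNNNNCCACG, to which NF-Y and ATF6 are known to bind. It was found in 5 of the 20 promoters of this list (25%), against 0.146% of promoters of tested genes and 0.0806% of all in the RefSeq table. All 5 are shown because they belong to 2 different classes. HSPA5, HSP90B1 and CRELD2 were opposite, and CALR and XBP1 were shared down. Capitals mark the element in either orientation, and the sequences are from RefSeq (GRCh38.p14).

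HSPA5 (chr9:125241386-125241415, minus strand): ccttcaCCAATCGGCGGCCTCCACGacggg

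HSP90B1 (chr12:103930315-103930344, plus strand): tgggtgCGTGGTGCGGCGCGATTGGtgggt

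CRELD2 (chr22:49918548-49918577, plus strand): acctctCGTGGCGAACTCGGATTGGgccat

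CALR (chr19:12938378-12938407, plus strand): cccacgCGTGGTCGACCATCATTGGtcggt

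XBP1 (chr22:28800598-28800627, minus strand): cgctggCCAATCGCGGAGGGCCACGaccgt

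In HSPA5 the element began 66 bases before the start, in XBP1 52 bases before it and in CALR 225 bases before it. The element was present in both parts of the list: 27.3% of the 11 opposite promoters held it, and 22.2% of the 9 others. CCAAT alone was in 80% of the list.

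CALR, the chaperone calreticulin, changed by -0.89 ± 0.09 in the knockdown and -0.98 ± 0.04 with the compound on the log2 scale, with a difference of 0.07 ± 0.10 that did not pass (adjusted p = 0.55, 95% interval -0.13 to 0.28). XBP1, whose spliced form drives part of this response, changed by -0.46 ± 0.11 in the knockdown and -1.29 ± 0.04 with the compound on the log2 scale. The counts are per gene and do not separate the spliced from the unspliced XBP1 transcript.

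Several metabolic lists had a part in the same opposite class. Cholesterol synthesis had 11 of 21 genes up in the knockdown and 14 down with the compound, and 7 were opposite. DHCR7, the enzyme of the last step, changed by 0.85 ± 0.08 in the knockdown and -0.96 ± 0.05 with the compound on the log2 scale. SQLE, squalene epoxidase, changed by 0.57 ± 0.07 in the knockdown and -0.54 ± 0.05 with the compound on the log2 scale. HMGCS1, of an early step, fell in both. Targets of the amino acid response factor ATF4 split, with 5 of 25 opposite, 8 shared down and 4 knockdown-sided up. PCK2 changed by 0.89 ± 0.09 in the knockdown and -0.61 ± 0.05 with the compound on the log2 scale, and both subunits of the cystine and glutamate exchanger were opposite. SLC3A2 changed by 0.51 ± 0.10 in the knockdown and -0.93 ± 0.04 with the compound on the log2 scale. SLC7A11 changed by 0.89 ± 0.14 in the knockdown and -0.71 ± 0.06 with the compound on the log2 scale. IDH1, the cytosolic isocitrate dehydrogenase, was at 212, 199.6 and 203 CPM in shControl and 681, 621 and 613 in shDDX5. It was at 109, 107 and 106 CPM in DMSO and 73.9, 74.1 and 72.0 in RX-5902.

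The other genes that the naming rule gave for this class have varied roles. USP28, a deubiquitinase of the MYC and p53 pathways, was at 2.39, 1.87 and 2.66 CPM in shControl and 12.9, 16.6 and 16.1 in shDDX5. These groups did not overlap, as the rule required. USP28 changed by 2.72 ± 0.17 in the knockdown and -0.55 ± 0.11 with the compound on the log2 scale. NAXE, which repairs damaged NADH, changed by 2.11 ± 0.17 in the knockdown and -0.95 ± 0.05 with the compound on the log2 scale. CPM, the membrane carboxypeptidase M, changed by 1.99 ± 0.12 in the knockdown and -0.94 ± 0.12 with the compound on the log2 scale, and it shares 133 exonic bases with MDM2. BST2, the antiviral protein tetherin, changed by 2.26 ± 0.15 in the knockdown and -0.61 ± 0.06 with the compound on the log2 scale. CITED2, a transcriptional cofactor, changed by 1.37 ± 0.10 in the knockdown and -0.84 ± 0.04 with the compound on the log2 scale.

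**Figure D4:**
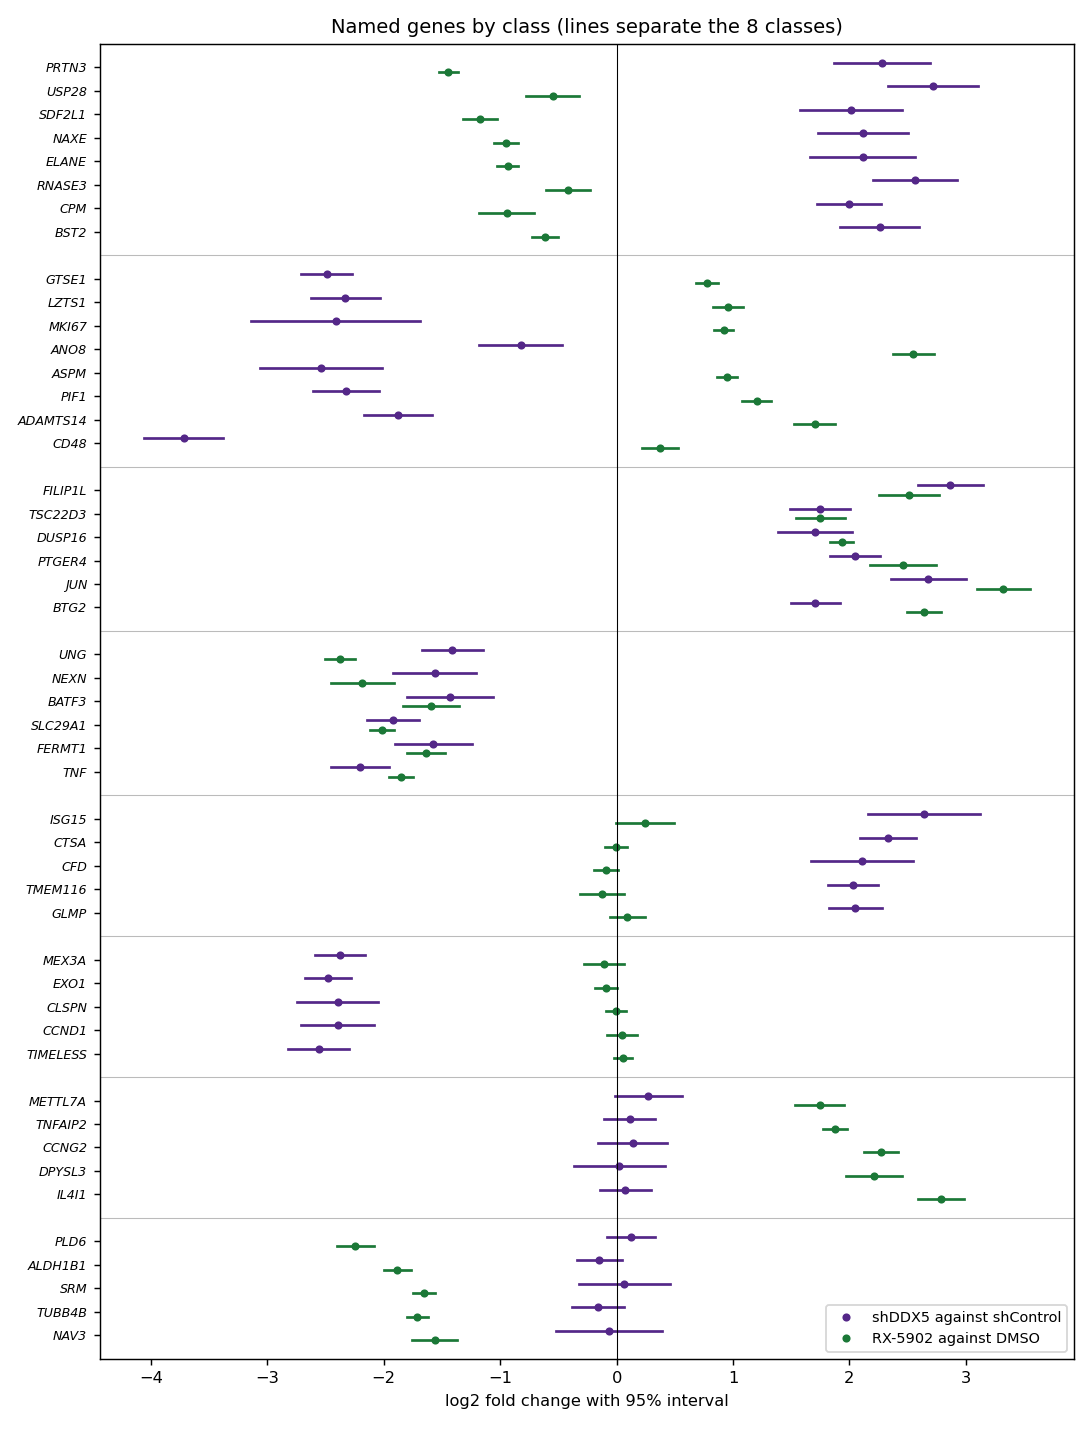
Log2 fold change with its 95% interval (x axis) of 48 genes named by the rule, knockdown in purple and compound in green, grouped into 8 classes by grey lines. By the rule that selected them, intervals of the opposite genes lie on either side of 0 and those of the shared genes on the same side. In the classes called in 1 experiment the other interval lies near 0, within 1.5-fold, also by that rule.

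Some of the widest differences were in signalling genes that the compound raised. CREB5, a CREB family transcription factor, was at 1.84, 1.92 and 1.38 CPM in shControl and 0.625, 0.509 and 0.365 in shDDX5. It was at 0.455, 0.607 and 0.802 CPM in DMSO and 20.3, 21.9 and 21.5 in RX-5902. The difference of -6.87 ± 0.30 (adjusted p = 6.85e-10) rests on low counts in 3 of the 4 groups. BCL6, a repressor and known FOXO target, was at 26.2, 26.8 and 27.9 CPM in shControl, 18.9, 22.2 and 22.0 in shDDX5, 5.26, 4.65 and 4.51 in DMSO and 29.8, 34.2 and 32.6 in RX-5902. PIK3IP1, an inhibitor of PI3 kinase, changed by -1.22 ± 0.18 in the knockdown and 1.60 ± 0.10 with the compound on the log2 scale. PDE4A, which breaks down cyclic AMP, changed by -1.11 ± 0.09 in the knockdown and 1.03 ± 0.05 with the compound on the log2 scale. The ERK pathway list was mixed. Of 15 genes of its feedback and output, 4 rose and 7 fell in the knockdown, 6 rose and 6 fell with the compound, 1 was opposite and up in the knockdown and 2 were the reverse. The last were SPRED1, a feedback inhibitor, and PHLDA1, which changed by -0.28 ± 0.09 in the knockdown and 1.66 ± 0.09 with the compound on the log2 scale. EGR1, an immediate early transcription factor, changed by 0.57 ± 0.07 in the knockdown and -0.97 ± 0.08 with the compound on the log2 scale. SPRY1, also a feedback inhibitor, changed by 0.60 ± 0.10 in the knockdown and -1.68 ± 0.13 with the compound on the log2 scale. FOSL1, an AP-1 subunit, changed by 1.28 ± 0.11 in the knockdown and -1.01 ± 0.09 with the compound on the log2 scale.

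Regulators of cell death were spread over the classes. Of 9 anti-apoptotic genes 4 rose and 4 fell in the knockdown, and 8 rose and 1 fell with the compound. Among these 9, 4 were shared up, 3 opposite and down in the knockdown, and 1 shared down. Of 19 pro-apoptotic genes 8 rose and 3 fell in the knockdown, and 9 rose and 4 fell with the compound. BIRC5, which encodes survivin and is expressed in mitosis, changed by -2.29 ± 0.10 in the knockdown and 0.32 ± 0.04 with the compound on the log2 scale. MCL1 and BCL2L2, both inhibitors of apoptosis, were opposite by smaller amounts, with log2 changes of -0.40 ± 0.09 in the knockdown and 0.20 ± 0.04 with the compound for MCL1. Those of BCL2L2 were -0.25 ± 0.08 in the knockdown and 0.34 ± 0.06 with the compound. BCL2 fell in both, with log2 changes of -0.87 ± 0.11 in the knockdown and -0.96 ± 0.04 with the compound. BMF, an activator of apoptosis, was shared up, from 40.2, 41.4 and 44.0 to 60.4, 82.1 and 88.0 CPM in the knockdown and from 11.0, 11.1 and 11.3 to 77.7, 77.2 and 82.3 CPM with the compound. BCL2L11, the activator BIM, was compound-sided down, with log2 changes of 0.10 ± 0.08 in the knockdown and -0.79 ± 0.06 with the compound, and shares 727 exonic bases with MIR4435-2HG.

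Among shared genes, the larger change was more often that of the knockdown. In the shared-up class the difference passed for 461 genes that rose more after the knockdown and for 154 that rose more under the compound. It did not pass for 755, and for 479 genes the 95% interval of the difference lay within 1.5-fold. In the shared-down class these counts were 710, 172, 816 and 700. Past 2-fold in both experiments were 131 genes up and 96 down.

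JUN (chr1:58776845-58784048), the AP-1 subunit that stress kinases activate, had the largest smaller change of the shared-up genes that met the naming rule's limits on level and overlap. It was at 2.59, 3.80 and 3.55 CPM in shControl and 21.2, 20.9 and 21.6 CPM in shDDX5, and at 1.67, 2.18 and 2.11 CPM in DMSO and 19.4, 21 and 19.3 CPM in RX-5902. Treated and control libraries were far apart in both experiments, with a difference of -0.66 ± 0.19 (adjusted p = 0.0086). TSC22D3, the glucocorticoid-induced leucine zipper, changed by 1.75 ± 0.11 and 1.75 ± 0.10, and its difference of -0.02 ± 0.14 had a 95% interval of -0.33 to 0.28. BTG2, an antiproliferative p53 target, changed by 1.71 ± 0.09 in the knockdown and 2.64 ± 0.07 with the compound on the log2 scale, and this gap passed (adjusted p = 7.64e-06). FILIP1L, which acts on filamin, changed by 2.87 ± 0.12 in the knockdown and 2.51 ± 0.13 with the compound on the log2 scale. PTGER4, a receptor for prostaglandin E2, changed by 2.05 ± 0.09 in the knockdown and 2.46 ± 0.14 with the compound on the log2 scale.

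DUSP phosphatases switch off MAP kinases, and the list holds the stress-kinase and nuclear DUSPs. They were mostly shared: 8 of 9 rose in the knockdown, 8 rose with the compound and 7 were shared up. Their sizes differed. DUSP8, which acts on JNK and p38, was at 6.77, 6.11 and 6.26 CPM in shControl and 11.9, 9.90 and 9.03 CPM in shDDX5. It went from 1.62, 0.961 and 0.752 CPM in DMSO to 29.4, 34.6 and 36.1 CPM in RX-5902. Its difference of -4.24 ± 0.25 (adjusted p = 1.06e-08) was thus large although both changes were upward. DUSP16, which acts on JNK, changed by 1.70 ± 0.14 in the knockdown and 1.93 ± 0.05 with the compound on the log2 scale, and its difference did not pass (adjusted p = 0.14). DUSP2 was the opposite member, with log2 changes of 1.47 ± 0.13 in the knockdown and -0.55 ± 0.10 with the compound. Immediate early genes, which cells switch on without new protein synthesis, had 18 of 25 up in the knockdown and 18 up with the compound, and 12 were shared up. Of that list EGR1 and PLK3 were opposite and up in the knockdown, and CSRNP1 was opposite and down in it.

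Interferon-response genes rose after the knockdown in 31 of 37 cases and under the compound in 23, and 19 were shared up. Their median change was 0.96 in the knockdown and 0.50 with the compound. The lentivirus is a part of the knockdown experiment in both of its groups. ISG15, a ubiquitin-like antiviral protein, was knockdown-sided: it was at 11.8, 12.6 and 13.1 CPM in shControl and 106, 59.9 and 69.0 in shDDX5, against 6.12, 6.53 and 5.11 in DMSO and 6.03, 6.90 and 8.10 in RX-5902. OAS2, which makes the activator of RNase L, was knockdown-sided too, with log2 changes of 1.87 ± 0.09 in the knockdown and -0.14 ± 0.10 with the compound. IFIT1, IFIT2 and IFIT3 were shared, and rose on the log2 scale by 1.32 ± 0.09, 1.31 ± 0.09 and 1.83 ± 0.10 in the knockdown and by 1.36 ± 0.17, 1.58 ± 0.10 and 1.54 ± 0.14 with the compound. In antigen presentation 10 of 18 genes rose and 2 fell in the knockdown, while 8 rose and 9 fell with the compound. In this list 7 were shared up, 2 shared down and 3 opposite and up in the knockdown. The peptide transporter TAP1 was shared up, with log2 changes of 1.86 ± 0.09 in the knockdown and 0.52 ± 0.05 with the compound.

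Lysosomal and autophagy genes rose in 23 of 31 cases in either experiment, and 18 were shared up. The knockdown median was 0.73 and the compound median 0.26. CTSA, the protective protein of lysosomal sialidase, was knockdown-sided, from 114, 125 and 128 CPM to 675, 561 and 614 CPM, while it was at 68.8, 66.6 and 63.6 CPM in DMSO and 64.6, 66.7 and 67.3 CPM in RX-5902. Its compound value did not pass and had a 95% interval of -0.10 to 0.09. GLMP, a lysosomal membrane protein that shares 607 exonic bases with TMEM79, was knockdown-sided up as well, with log2 changes of 2.05 ± 0.10 in the knockdown and 0.09 ± 0.07 with the compound. LAMP2 was opposite, although its compound change was only -0.09 ± 0.04. TFEB, the transcription factor that directs this set, changed by -0.59 ± 0.14 in the knockdown and 1.30 ± 0.06 with the compound on the log2 scale.

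Targets of p53 were raised in 19 of 27 cases in the knockdown and in 15 with the compound, and 11 were shared up and 6 knockdown-sided up. CDKN1A, the cell cycle inhibitor p21, changed by 1.42 ± 0.11 in the knockdown and 1.17 ± 0.04 with the compound on the log2 scale. ZMAT3, an RNA-binding protein, changed by 1.10 ± 0.09 in the knockdown and 0.17 ± 0.05 with the compound on the log2 scale. SESN2, an inhibitor of mTORC1 signalling, changed by 1.01 ± 0.08 on the log2 scale in the knockdown, and its value of -0.08 ± 0.05 with the compound did not pass. DDB2, a DNA damage sensor, was opposite, with log2 changes of -0.28 ± 0.09 in the knockdown and 0.78 ± 0.05 with the compound.

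Ribosome biogenesis genes were mostly lowered by both agents. These genes make and process ribosomal RNA in the nucleolus, where DDX5 is known to take part. Of 64 tested, 51 fell in the knockdown and 61 fell with the compound, and 50 were shared down. The list median was -0.71, -0.68 and -0.68 in the shDDX5 libraries and -0.86, -0.84 and -0.85 in the RX-5902 libraries. The median difference was 0.17, although the difference of single genes passed for 24 in the positive and 12 in the negative direction. RRN3, which starts RNA polymerase I transcription, fell more in the knockdown, with log2 changes of -1.28 ± 0.10 in the knockdown and -0.52 ± 0.04 with the compound. BYSL, which acts on the small subunit, was compound-sided, with log2 changes of -0.24 ± 0.09 in the knockdown and -1.14 ± 0.05 with the compound, and shared down without shDDX5 replicate 1.

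MYC, the transcription factor that drives this group, was shared down, with log2 changes of -1.12 ± 0.08 in the knockdown and -2.02 ± 0.04 with the compound. Of 29 genes of the MYC network 16 were shared down. NOP16, a nucleolar protein that shares 177 exonic bases with HIGD2A, changed by -0.33 ± 0.11 in the knockdown and -1.87 ± 0.05 with the compound on the log2 scale, and SLC19A1, the folate carrier, was compound-sided, with log2 changes of 0.05 ± 0.08 in the knockdown and -1.39 ± 0.05 with the compound. MXD1, an antagonist of MYC, was shared up, with log2 changes of 1.77 ± 0.08 in the knockdown and 0.62 ± 0.05 with the compound. The palindrome CACGTG, the E-box that MYC and its relatives bind, was in 38.5% of the promoters of the MYC network and 35.8% of those of ribosome biogenesis. It was in 15.8% of the shared-down class, 8.14% of the shared-up class and 10.6% of all promoters of tested genes.

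Nucleotide and one-carbon synthesis fell in 19 of 23 cases in the knockdown and in all 23 with the compound. PSAT1, of serine synthesis, fell more with the compound, with log2 changes of -0.29 ± 0.09 in the knockdown and -1.44 ± 0.04 with the compound, and SHMT1, which passes carbon from serine to folate, fell more in the knockdown, with log2 changes of -1.65 ± 0.10 in the knockdown and -0.51 ± 0.06 with the compound. IMPDH1, of guanine nucleotide synthesis, was the opposite member, with log2 changes of 0.54 ± 0.10 in the knockdown and -0.89 ± 0.05 with the compound. The nucleoside transporter gene SLC29A1 (chr6:44219553-44234142) had the largest smaller change of the shared-down genes that met the naming rule's limits on level and overlap. It was at 117, 139 and 131 CPM in shControl and 34.9, 31.8 and 35.3 CPM in shDDX5, and at 158, 152 and 141 CPM in DMSO and 34.8, 37.6 and 39.4 CPM in RX-5902. The difference of 0.07 ± 0.12 did not pass (adjusted p = 0.62), with a 95% interval of -0.18 to 0.32.

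TNF, the inflammatory cytokine, was at 304, 335 and 329.7 CPM in shControl and 79.3, 63.7 and 67.3 CPM in shDDX5, and at 113, 120.1 and 113 CPM in DMSO and 29.5, 32.1 and 34.4 CPM in RX-5902. Treated libraries were the lower ones in both experiments, with log2 changes of -2.20 ± 0.11 in the knockdown and -1.85 ± 0.05 with the compound. UNG, which removes uracil from DNA, changed by -1.41 ± 0.12 in the knockdown and -2.37 ± 0.06 with the compound on the log2 scale, and the gap passed (adjusted p = 4.48e-05). FERMT1, an activator of integrins, changed by -1.57 ± 0.14 in the knockdown and -1.64 ± 0.08 with the compound on the log2 scale. NEXN, an actin-binding protein, changed by -1.56 ± 0.15 in the knockdown and -2.18 ± 0.13 with the compound on the log2 scale. BATF3, an AP-1 family factor of dendritic cells, changed by -1.43 ± 0.16 in the knockdown and -1.59 ± 0.12 with the compound on the log2 scale.

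Relatives of DDX5 were mostly lowered as well. Of 42 DEAD-box and DEAH-box helicases, a list that includes DDX5 itself, 32 fell in the knockdown and 29 with the compound, and 23 were shared down. DDX21, a nucleolar helicase, changed by -0.94 ± 0.12 in the knockdown and -0.71 ± 0.04 with the compound on the log2 scale. DDX23, a spliceosomal helicase, was knockdown-sided, at 133, 139.6 and 144 CPM in shControl and 37.9, 48.1 and 48.0 in shDDX5. It was at 241, 240.1 and 232 CPM in DMSO and 235, 226 and 227 in RX-5902. DDX5, DDX17, DDX59, DHX8 and DHX40 were the opposite members. The spliceosome list, in which DDX5 itself works, had 27 of 55 genes shared down and 6 knockdown-sided down, and the difference was negative for SF3A1 and HNRNPH1. SF3A1 changed by -1.67 ± 0.08 in the knockdown and -0.27 ± 0.04 with the compound on the log2 scale. HNRNPH1 changed by -1.19 ± 0.10 on the log2 scale in the knockdown, and its value of -0.06 ± 0.04 with the compound did not pass. Factors that act on RNA-DNA hybrids and RNA decay had 8 of 29 knockdown-sided down, TOP1 among them, with log2 changes of -1.01 ± 0.08 in the knockdown and -0.08 ± 0.04 with the compound.

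Of the heat shock proteins and chaperones of the cytosol, 13 of 26 were shared down and 3 opposite. STIP1, which links HSP70 to HSP90, was compound-sided, with log2 changes of 0.07 ± 0.08 in the knockdown and -0.67 ± 0.04 with the compound. BAG3, a cochaperone of HSP70, was shared up, with log2 changes of 1.48 ± 0.09 in the knockdown and 0.16 ± 0.06 with the compound. HSPA1B was opposite, with log2 changes of 0.48 ± 0.11 in the knockdown and -1.22 ± 0.08 with the compound, a gene with a near-identical copy, HSPA1A, so that its counts are uncertain.

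The lowered knockdown-sided genes named by the rule included genes of replication and DNA repair. TIMELESS, which protects replication forks, was at 117, 124 and 121 CPM in shControl and 17.3, 22.0 and 22.2 CPM in shDDX5. It was at 182, 185 and 181 CPM in DMSO and 185, 188 and 195 CPM in RX-5902, a log2 value of 0.05 ± 0.04 that did not pass (95% interval -0.03 to 0.13). CLSPN, its partner in checkpoint signalling, was at 55.4, 53.6 and 54.8 CPM in shControl and 7.72, 11.8 and 11.5 CPM in shDDX5, and its log2 value of -0.0042 ± 0.04 under the compound did not pass. EXO1, a repair exonuclease, changed by -2.48 ± 0.09 on the log2 scale in the knockdown, and its value of -0.09 ± 0.05 with the compound did not pass. MEX3A, an RNA-binding protein, changed by -2.38 ± 0.09 on the log2 scale in the knockdown, and its value of -0.11 ± 0.09 with the compound did not pass. CCND1, the gene of cyclin D1, changed by -2.40 ± 0.14 on the log2 scale in the knockdown, and its value of 0.05 ± 0.06 with the compound did not pass, and it shares 497 exonic bases with LTO1. CCND3 showed the same pattern, with log2 changes of -1.51 ± 0.12 in the knockdown and -0.03 ± 0.04 with the compound. Of the 1015 genes of this class the compound interval lay within 1.5-fold for 887, and of the 962 raised genes for 753.

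TMEM116, a membrane protein, was the remaining raised gene of this class by the rule, with log2 changes of 2.03 ± 0.09 in the knockdown and -0.12 ± 0.09 with the compound.

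NF-kB genes rose mostly with the compound. NF-kB factors are held in the cytosol by inhibitors whose genes they in turn activate. With RX-5902 16 of 18 rose, with a median of 1.01, while 8 rose and 3 fell in the knockdown. The difference passed in the negative direction for 13 (background 28.6%). NFKB2, the p100 precursor, was at 32.7, 33.4 and 32.9 CPM in DMSO and 147, 154 and 156 CPM in RX-5902. In the knockdown experiment NFKB2 was at 23.4, 22.7 and 23.3 CPM in shControl and 29.7, 34.9 and 34.7 CPM in shDDX5, so it was shared up, with a difference of -1.71 ± 0.09. RELB, its partner, was at 9.75, 8.50 and 8.42 CPM in DMSO and 42.2, 44.7 and 46.9 in RX-5902, and its shControl and shDDX5 libraries overlapped. TNFAIP2, an NF-kB target, changed by 1.88 ± 0.05 on the log2 scale with the compound, and its value of 0.11 ± 0.10 in the knockdown did not pass. The inhibitor NFKBIA changed by 1.28 ± 0.06 on the log2 scale with the compound, and its value of -0.07 ± 0.16 in the knockdown did not pass. Without shDDX5 replicate 1, TNFAIP2 was shared up, and RELB and NFKBIA were opposite. The class of these genes rested on shDDX5 replicate 1: 6 were compound-sided up with it and 1 without it, when 5 were opposite and down in the knockdown, 1 was opposite and up in it and 9 were shared up.

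IL4I1 (chr19:49889654-49929539), a secreted amino acid oxidase, had the largest compound-sided rise by the rule. It was at 3.44, 2.93 and 3.41 CPM in DMSO and 21.4, 22.7 and 23.6 CPM in RX-5902. In the knockdown experiment it was at 12.4, 14 and 14.5 CPM in shControl and 14.4, 14.3 and 14.3 CPM in shDDX5, a log2 value of 0.07 ± 0.09 that did not pass (95% interval -0.14 to 0.29). IL4I1 shares 336 exonic bases with NUP62. CCNG2, a cyclin of arrested cells and known FOXO target, changed by 2.27 ± 0.07 on the log2 scale with the compound, and its value of 0.14 ± 0.13 in the knockdown did not pass. DPYSL3, which binds tubulin, changed by 2.21 ± 0.12 on the log2 scale with the compound, and its value of 0.02 ± 0.17 in the knockdown did not pass. METTL7A, a lipid droplet methyltransferase, changed by 1.74 ± 0.10 on the log2 scale with the compound, and its value of 0.27 ± 0.13 in the knockdown did not pass. KLF6, an immediate early transcription factor, was compound-sided, with log2 changes of 0.12 ± 0.10 in the knockdown and 1.47 ± 0.06 with the compound and shared up without shDDX5 replicate 1.

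Tubulin genes, whose mRNAs are known to be degraded when free tubulin rises, fell mostly with the compound. Of 9 alpha and beta tubulins 7 fell with RX-5902 and 5 in the knockdown, with medians of -1.28 and -0.38. The difference passed in the positive direction for 7 of them (background 24.1%). TUBB4B was at 562, 519.8 and 509.6 CPM in DMSO and 164, 168 and 154 CPM in RX-5902. It was at 220.0, 235 and 236 CPM in shControl and 230.2, 188 and 201 CPM in shDDX5, where the groups overlapped in replicate 1. TUBB fell in both, with log2 changes of -0.38 ± 0.11 in the knockdown and -1.47 ± 0.04 with the compound. TUBA1A ran against the others, with log2 changes of -1.05 ± 0.11 in the knockdown and 0.80 ± 0.05 with the compound, and it shares 345 exonic bases with TUBA1C. Without shDDX5 replicate 1 the 3 compound-sided tubulins all left that class, and TUBB4B was then shared down. Counts of tubulin genes are uncertain where their sequences are near-identical. Gamma tubulin and the tubulin cofactors were mixed, with 6 of 17 up and 8 down under the compound.

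Of the genes lowered mainly by the compound, PLD6, a mitochondrial phospholipase, was at 29.5, 27.7 and 29.2 CPM in DMSO and 6.22, 6.09 and 5.92 CPM in RX-5902. Its libraries in the knockdown experiment overlapped, at 33.4, 35.1 and 37.6 CPM and 40.9, 38.7 and 35.8 CPM. ALDH1B1, a mitochondrial aldehyde dehydrogenase, changed by -1.88 ± 0.06 on the log2 scale with the compound, and its value of -0.15 ± 0.08 in the knockdown did not pass. SRM, spermidine synthase, changed by -1.66 ± 0.05 on the log2 scale with the compound, and its value of 0.07 ± 0.17 in the knockdown did not pass. Both were shared down without shDDX5 replicate 1. In SRM that library was at 151 CPM and the others at 92.3 and 104, against 105, 113 and 113 in shControl. NAV3, a microtubule-guiding protein, changed by -1.56 ± 0.10 on the log2 scale with the compound, and its value of -0.07 ± 0.20 in the knockdown did not pass, and became opposite without that library. PLD6 shares 176 exonic bases with MPRIP.

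Genes of the mitochondrial ribosome were mostly lowered by the compound, and after the knockdown the direction of their median depended on the library. Of 74 mitochondrial ribosome genes 65 fell with RX-5902, with a median of -0.44. After the knockdown 17 rose and 18 fell, and 37 fell without shDDX5 replicate 1. The list median was 0.27, -0.12 and -0.10 in the shDDX5 libraries, above 0 in replicate 1 and below it in the others, and -0.45, -0.41 and -0.40 in the RX-5902 libraries. With all libraries 25 were compound-sided, 16 shared down and 15 opposite and up in the knockdown, and without replicate 1 these were 15, 33 and 17. MRPL49 was opposite, with log2 changes of 0.57 ± 0.08 in the knockdown and -0.26 ± 0.05 with the compound and shares 356 exonic bases with SYVN1, and MRPL39 was knockdown-sided down, with log2 changes of -1.08 ± 0.10 in the knockdown and -0.14 ± 0.06 with the compound.

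Nuclear-encoded subunits of the respiratory chain were also mostly lowered by the compound. In complexes II to V 34 of 39 fell with the compound and 2 in the knockdown, or 17 without shDDX5 replicate 1. In complex I 28 of 37 fell with the compound and 5 in the knockdown, or 17 without that library. Over all genes tested without that library, 5167 of 13411 fell in the knockdown. Of the 13 proteins encoded by mitochondrial DNA 12 fell with the compound, and 5 rose in the knockdown, or 7 without shDDX5 replicate 1. Their list median was above shControl in every shDDX5 library, at 0.89, 0.29 and 0.15, and the median difference was 0.84, or 0.53 without that library. The list of mitochondrial DNA maintenance, import and dynamics was below shControl in every shDDX5 library, at -0.10, -0.23 and -0.25. MT-ND4, a complex I subunit, was at 7644, 6701 and 5649 CPM in shControl and 13394, 8564 and 8238 CPM in shDDX5, with replicate 1 the highest. That library also had the highest share of mitochondrial counts, 10.3%, against 8.09% and 7.71% in the other shDDX5 libraries, and the part of this in the result was not tested. ATP5MC1, the ring subunit of ATP synthase, was compound-sided, with log2 changes of 0.26 ± 0.16 in the knockdown and -0.94 ± 0.05 with the compound.

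**Figure D5:**
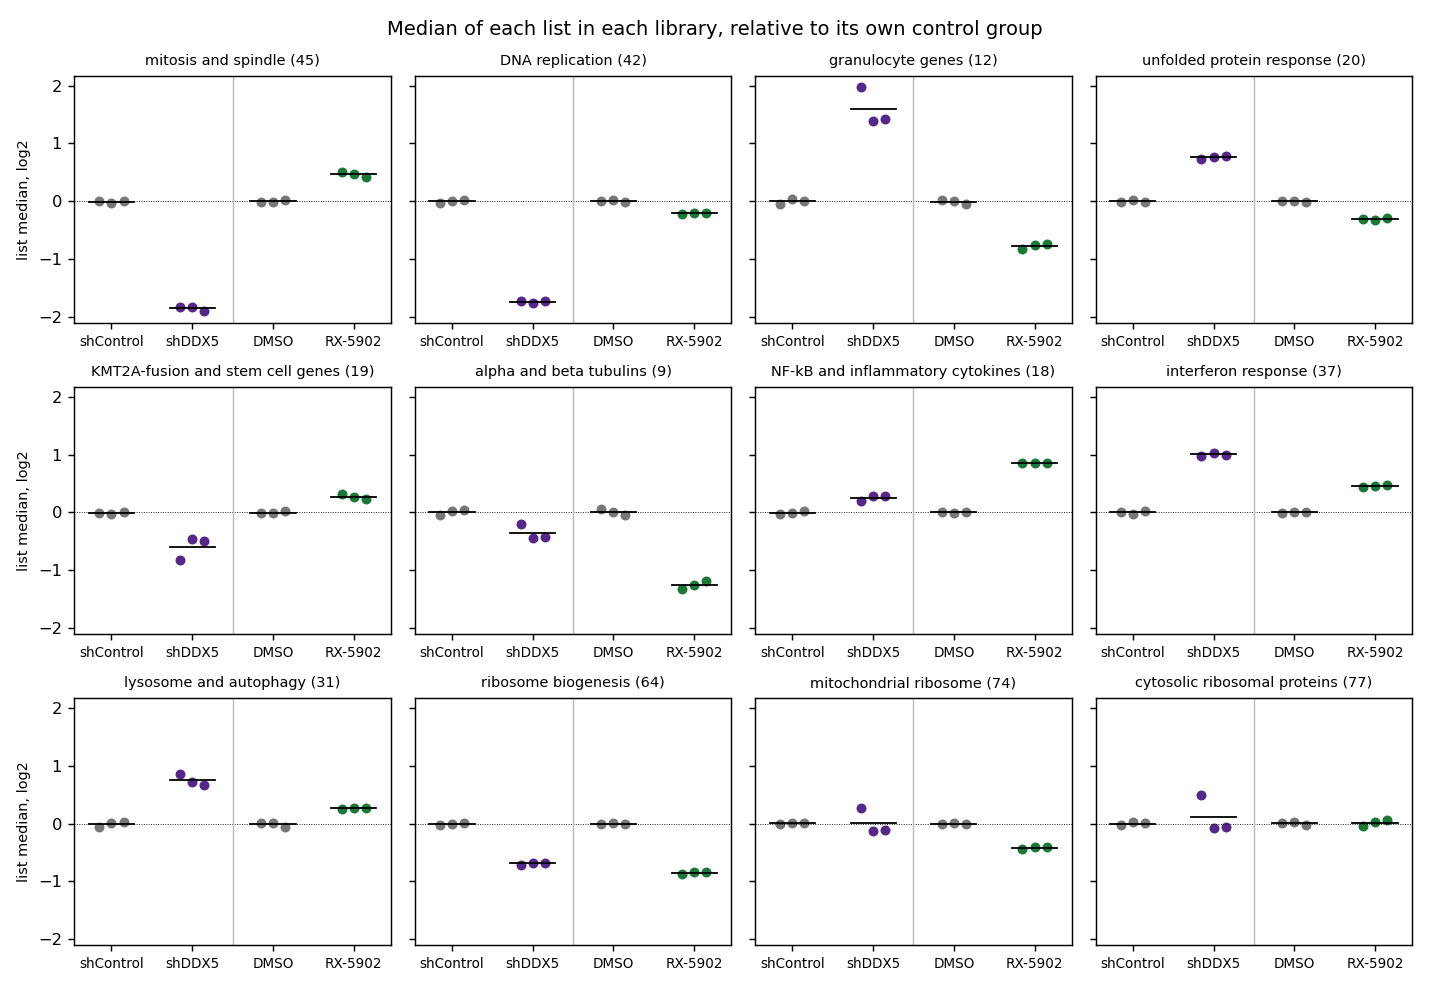
Median over the genes of 12 lists of log2(CPM + 0.5) relative to the mean of the own control group (y axis), 1 point a library and lines for group means, knockdown experiment left and compound experiment right of the grey line. In shDDX5 replicate 1, the leftmost purple point, the mitochondrial and cytosolic ribosome lists lie above 0 and the other 2 libraries below it, while the mitosis, replication and unfolded protein response lists hold all 3 libraries together.

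Host genes of small nucleolar RNAs, whose transcripts are mostly non-coding, fell with the compound in 13 of 18 cases. After the knockdown 3 rose and 3 fell, or 11 fell without shDDX5 replicate 1. SNHG4 was at 93.8, 93.9 and 96.6 CPM in DMSO and 24.2, 25.3 and 24.0 in RX-5902, and at 91.0, 80.3 and 84.7 CPM in shControl and 70.1, 65.7 and 59.6 in shDDX5. SNHG4 shares 118 exonic bases with SIL1. SNHG16 was opposite, with log2 changes of 0.47 ± 0.08 in the knockdown and -0.70 ± 0.05 with the compound.

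Genes of the cytosolic ribosome were mostly unplaced with all libraries. Of 77 genes 67 were unplaced, with 4 up and 2 down in the knockdown and 11 up and 7 down with the compound. Without shDDX5 replicate 1, 14 rose and 32 fell in the knockdown, 25 were knockdown-sided down and 34 unplaced. Of all 13411 genes tested without that library, 4618 rose and 5167 fell in the knockdown, 1282 were knockdown-sided down and 2762 unplaced. The list median relative to shControl was 0.49, -0.07 and -0.06 in the libraries of replicates 1, 2 and 3. RPL7, of the large subunit, was knockdown-sided down, with log2 changes of -1.09 ± 0.14 in the knockdown and -0.06 ± 0.04 with the compound. RPL17 was compound-sided down, and it has close copies in the genome, so its counts are uncertain. The classes of the proteasome list also depended on that library, with 5 of 36 genes shared down with all libraries and 19 without shDDX5 replicate 1. Unlike the cytosolic ribosome, the proteasome mostly fell with the compound, in 30 of 36 cases.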

How the data were processed

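RNA-seq counts of 12 libraries were analysed. The deposited files were 2 gene tables of raw counts, with no scaling by the authors. Per the submitters' processing notes STAR 2.7.9a, featureCounts of Subread 2.0.3, Trim Galore 0.6.7, Picard 2.8.0, DESeq2 1.46.0 and R 4.4.2 were used, on GRCh38.p13. Strand setting, annotation release and treatment of duplicates are not given in the sources used here, so reads of overlapping genes may be mixed. Total RNA was purified with Trizol and spin columns and prepared with an MGI kit, per the labels' protocols.

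Each table held 61906 genes, and 1 wrapped line was rejoined. Symbols were matched for all but 103. Changes were tested with edgeR 4.0.16 (R 4.3.3) quasi-likelihood F tests on counts with filterByExpr and TMM scaling, the knockdown and the compound each on its own 6 libraries and the difference on all 12. P-values were adjusted by Benjamini and Hochberg over all genes of a fit, with a threshold of 0.05. They weigh a change against the spread of libraries within groups. That spread was estimated over both groups of an experiment or, for the difference, over all 4 groups. SE is the absolute log2 change divided by the root of F. CPM are TMM-scaled within an experiment. The total count per library, 17603589 to 20367575, sets the precision. The fit was tested on simulated data.

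Members and lists were chosen with earlier results of these data known. Genes were named by a rule: DDX5 and DDX17, the opposite (8 per orientation), shared (6 per direction) and flat one-sided (5 per side and direction) genes with the largest changes among protein-coding genes at a mean of 5 CPM or more in each experiment whose control and treated libraries did not overlap where called, and up to 3 genes per list with the smallest p of the difference. A flat gene had a 95% interval within 1.5-fold in the other experiment. Genes outside the rule are marked. Alternatives were 1 fit of all 12 libraries, DESeq2 1.42.0, RLE scaling, no filter, a filter of 5 CPM in 3 libraries, the replicate number as a block, limma 3.58.1 voom with quality weights, a test against a fold of 1.2, and leaving out each library.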

Additional observations from a re-analysis of the deposited data

How the results depend on the processing

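The differences of the named genes were little affected by the processing: 196 of 201 kept their sign and their side of the threshold under all 20 alternatives. The sign changed for 2 differences that had not passed. The difference of TSC22D3 became 0.00289 with DESeq2 and 0.0039 with RLE size factors, and ranged from -0.0991 to 0.0627 when 1 library was left out. That of FERMT1 ranged from -0.0201 to 0.213 when 1 library was left out. Among the counts of calls and of the 8 classes, those that moved by over 1.5 times did so under 3 settings. Unplaced genes went from 4210 to 2762 without shDDX5 replicate 1, and counts within lists that moved without it stand in the report. In 1 fit of all 12 libraries, which shares 1 estimate of the spread and tests 15386 genes in place of 13233, there were 1726 knockdown-sided genes up and 1688 down. With at least 5 CPM in 3 libraries, and so fewer genes tested, there were 673 knockdown-sided genes down. Against a fold of 1.2, a stricter test, the compound raised 2573 and lowered 2617 genes, and the classes held 686 genes shared up, 874 shared down, 350 opposite and up in the knockdown and 511 opposite and down in it. Same-numbered libraries deviated from their group means with correlations of -0.066 to 0.037, so the numbers were not taken to pair them. With the replicate number as a block, 7592 genes passed in the knockdown, 8696 with the compound and 7626 for the difference. The median difference kept its sign under all 19 alternatives for 47 of 55 lists, and 8 lists did not, among them cytosolic ribosomal proteins (0.09, and -0.11 without shDDX5 replicate 1). The cause of these shifts was not tested. At these depths, a gene whose difference did not pass is not shown to be equal in both experiments.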
